A study of Arabidopsis thaliana with 34 samples.

Results

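Leaves of the Arabidopsis thaliana accessions Rschew (Rsch) and Columbia-0 (Col) were compared after 1 d of sub-zero acclimation at -3 °C, over all 22746 non-control probe sets of the ATH1 array. The comparison rests on 6 of the 34 arrays of the series, 3 of Rsch and 3 of Col. Genes that already differed between the accessions before the sub-zero step were set apart with the 6 arrays of cold acclimated leaves. Plants of both accessions had been grown for 42 days at a day length of 16 h (20 °C by day, 18 °C by night) and cold acclimated for 14 days at 4 °C. The sub-zero leaves were detached, stood in water in the dark at -3 °C and remained supercooled, so all leaves of the 1 d groups shared detachment and darkness as well as cold. Cold acclimated leaves had neither. Each array holds RNA pooled from 3 leaves of different plants, and each accession is 1 natural line. The other arrays were those of 8 h and 3 d at -3 °C and of the accession Tenela (Te).

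Cold acclimation is the gain in freezing tolerance of plants kept for days at low temperatures above freezing. It runs in part through the CBF transcription factors, which switch on COR and dehydrin genes whose proteins protect membranes and other proteins. A later stay just below freezing, without ice, raises the tolerance further in many plants. Accessions are wild lines that have diverged in sequence. Their constant differences in expression often lie in defence genes, such as those of intracellular immune receptors (NLR proteins), and in enzymes that make glucosinolates, the mustard oil precursors. Loci without a symbol in the annotation are given here by their locus number, and a role stated for one of them is general background.

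Values are log2 intensities, and a difference is Rsch minus Col on that scale, so a value of 1 stands for 2-fold. The probes follow the Columbia-0 sequence. A lower signal from a probe that matches Rsch RNA less well and a lower transcript level in Rsch cannot be told apart on this array, and neither can fewer cells of a type and less RNA per cell. Array medians lay between 5.97 and 6.22. The bioC control transcript, added during array processing, was at a mean of 7.05 on 9 arrays of the series and 8.34 on 25. Replicate 1 of each 1 d and cold acclimated group was among the 9. No label calls these sets batches. The actin control (3' minus 5' probe sets), a sign of RNA quality, was 2.78 to 3.24 in Col and 2.79 to 3.20 in Rsch at 1 d. In the cold acclimated leaves it was 3.58 to 3.62 in Col and 3.00 to 3.49 in Rsch, which did not overlap, and its part in that comparison was not tested. RCA, the rubisco activase of green leaf cells, was high on every 1 d array (11.79 to 12.37). FMA (FAMA), a guard cell factor, stood at 5.27 to 5.62.

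After 1 d at -3 °C the accessions differed in both directions, with the deeper differences on the lower side. A linear model over all arrays (limma, Benjamini-Hochberg adjusted p under 0.05, two-sided) called 857 probe sets, 3.77% of those tested. Of these, 376 (1.65%) were higher in Rsch and 481 (2.11%) were lower. Differences of at least 2-fold were found for 142 higher and 298 lower probe sets. When cold acclimated, 1115 probe sets (4.9%) differed. The replicate number as a block moved the count at 1 d to 1301 and that of cold acclimated leaves to 1824. Without Rsch 1 d replicate 1 the 1 d count was 507, and without Rsch cold acclimated replicate 1 the other was 601. With the bioC sets as a block, 997 probe sets were called at 1 d, and 419 were called on the arrays of the larger set alone. The smaller set holds 1 array per group at these stages and gives no test of its own.

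Of the 857 probe sets, 572 (66.7%) had differed in the same direction in cold acclimated leaves, 231 higher and 341 lower in Rsch. The other 285 were called at 1 d only. None was called at both stages in opposite directions. With the replicate block, 892 were called at both stages. The share called before the sub-zero step was larger among the strong differences, 334 of the 440 with at least 2-fold (75.9%). Of the 1115 probe sets called in cold acclimated leaves, 1099 (98.6%) had the same sign at 1 d. Over all 22746 probe sets the differences at both stages correlated at 0.80 (Pearson). The cold acclimated difference divided by that at 1 d had a lower quartile of -0.22 there and a median of 0.71. A negative value means opposite signs, which were thus more frequent over all probe sets than among the 1115. The stages were measured on different arrays, but same-numbered arrays of the same accession deviated together from their group means. The correlations between the stages were 0.44 to 0.58 in Col and 0.39 to 0.50 in Rsch, so the stages were not fully independent. Whether the accession difference changed between them was tested directly as an interaction, which called 6 probe sets (0.0264%). At an unadjusted p under 0.05 there were 468 (2.06%), and 713 with the replicate block. Both counts lay below what this threshold would pass if no difference had changed, so no further changes are read from them.

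**Figure D1:**
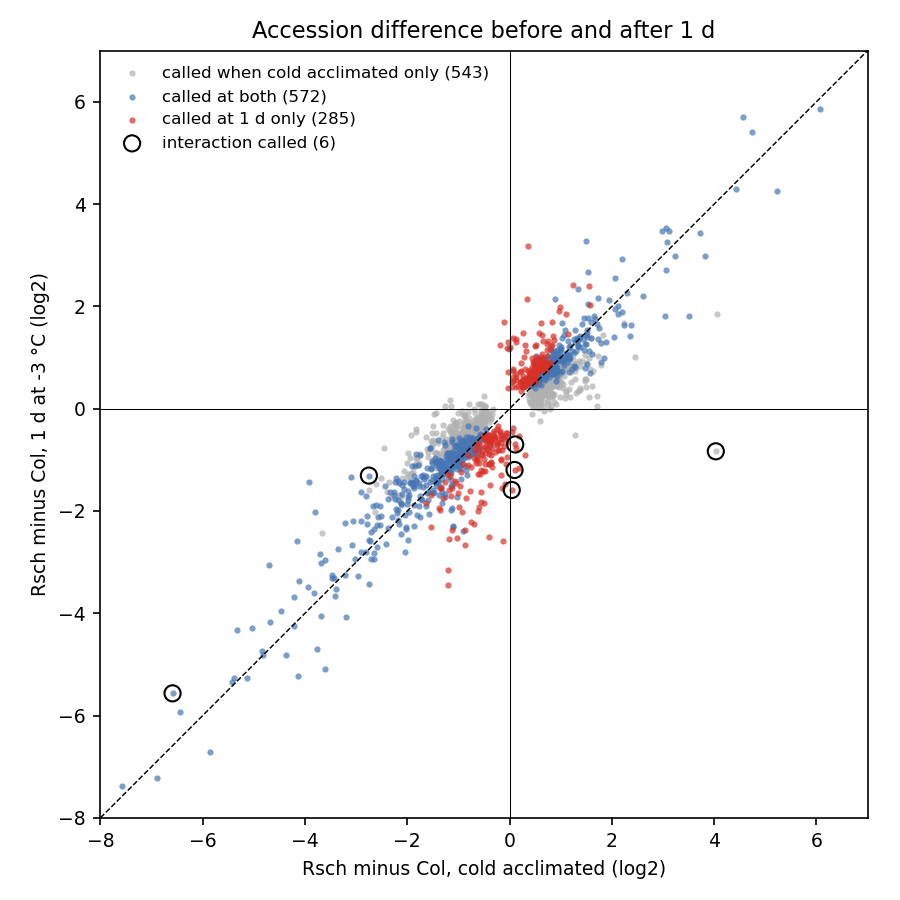
Rsch minus Col in cold acclimated leaves (x axis, log2) against the same difference after 1 d at -3 °C (y axis, log2) for every probe set called at either stage, 572 at both, 285 at 1 d only and 543 when cold acclimated only, with rings round the 6 whose difference changed. The 572, which were chosen as called at both stages, lie around the dashed line of equality, and AT5G28430 is the ringed point far to the right of the vertical axis, at 4.03 and -0.83.

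Among genes higher in Rsch at both stages, AT4G29200 had the highest difference at 1 d. It read 10.13, 10.39 and 10.04 on the Rsch arrays and 4.46, 4.22 and 4.30 on those of Col, a difference of 5.86 ± 0.15 (SE; limma adjusted p = 1.21e-19). The groups were far apart, at 58.1-fold, and the cold acclimated difference was 6.08 ± 0.15. AT3G47320, a pseudogene in RefSeq, read 8.02, 7.59 and 8.63 in Rsch and 2.70, 2.69 and 2.62 in Col. Col was low on all 3 arrays. No detection calls were used here, so whether so low a reading lies above background is not known, and a difference from it is that of the deposited values only. Its difference was 5.41 ± 0.32 at 1 d and 4.73 ± 0.32 when cold acclimated. AT2G15560 read 9.76, 9.61 and 9.43 in Rsch against 5.27, 5.27 and 5.37 in Col (4.30 ± 0.23). Over the 10 Col and 12 Rsch arrays of all stages, the readings of these 3 genes did not overlap between the 2 accessions. This held for 1.82% of all probe sets.

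AT5G24240, of the phosphoinositide 4-kinase gamma family, read 8.88, 9.15 and 8.60 in Rsch and 5.46, 5.78 and 5.64 in Col, with a difference of 3.25 ± 0.20. AT4G19530, of the TIR-NBS-LRR class of immune receptors, read 8.40, 9.07 and 8.06 in Rsch and 5.12, 5.02 and 5.56 in Col. Its difference was 3.28 ± 0.35 at 1 d and 1.5 ± 0.35 when cold acclimated. The change between stages did not pass the test (interaction 1.78 ± 0.50, adjusted p = 0.841). In cold acclimated leaves Col replicate 3 stood at 7.23, above its other 2 arrays at 5.48 and 5.97. AT1G50290 (3.47 ± 0.30) and AT5G41660 (3.44 ± 0.15) were also higher by over 3 on the log2 scale. AT2G12050, a transcribed pseudogene in RefSeq whose probe set can detect related transcripts, differed by 2.98 ± 0.22.

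The 2 deepest differences among named genes were lower in Rsch, at loci with nearby numbers. AT2G25510 had a high signal in Col, at 13.14, 13.23 and 12.71, and stood at 4.60, 6.30 and 6.03 in Rsch. The difference was -7.39 ± 0.32 (adjusted p = 7.13e-15), or 167-fold. AT2G25450, the 2-oxoglutarate-dependent dioxygenase known as GSL-OH that hydroxylates butenyl glucosinolate, read 11.64, 11.77 and 10.98 in Col and 4.09, 5.44 and 4.75 in Rsch. Its difference was -6.70 ± 0.54 (adjusted p = 2.43e-09), against -5.85 ± 0.54 in cold acclimated leaves. Both genes spread more among the Rsch arrays than among those of Col, and in both Rsch 1 d replicate 1 was the lowest.

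In several others the Rsch signal was low at every stage, and their differences carry the same limit. AT1G76960 read 3.31, 3.28 and 3.53 in Rsch and 9.59, 9.57 and 8.72 in Col (-5.92 ± 0.19). AT2G01090, annotated as a hinge protein of the mitochondrial cytochrome bc1 complex, read 3.06, 3.13 and 3.24 in Rsch and 8.92, 8.07 and 8.50 in Col (-5.35 ± 0.19). AT4G32240 was lower by a similar step (-4.73 ± 0.21). The low reading of these genes is shared by many: in 102 of the 233 probe sets called at both stages and lower by at least 2-fold at 1 d, the Rsch 1 d mean was under 5.32 and that of Col was not, a limit below which 40% of all values lie and which is called dim here. The mirror case held for 37 of the 101 that were higher.

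A neighbouring pair linked to defence showed the same direction with a Col level that varied. AT1G66100, of the thionin family of small antimicrobial proteins, read 9.03, 7.73 and 10.25 in Col and 3.62, 4.10 and 4.01 in Rsch at 1 d (-5.09 ± 0.52). AT1G66090, of the TIR-NBS class of immune genes, read 9.41, 9.25 and 9.81 in Col and 4.60, 4.99 and 4.77 in Rsch (-4.71 ± 0.39). In cold acclimated Col both were highest in replicate 3, with 9.08 for AT1G66100 and 9.95 for AT1G66090. All 16 genes of this group that the rule for named genes picked were called at 1 d under every alternative run. They were picked as the largest differences, so their calls were likely to stand.

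**Figure D2:**
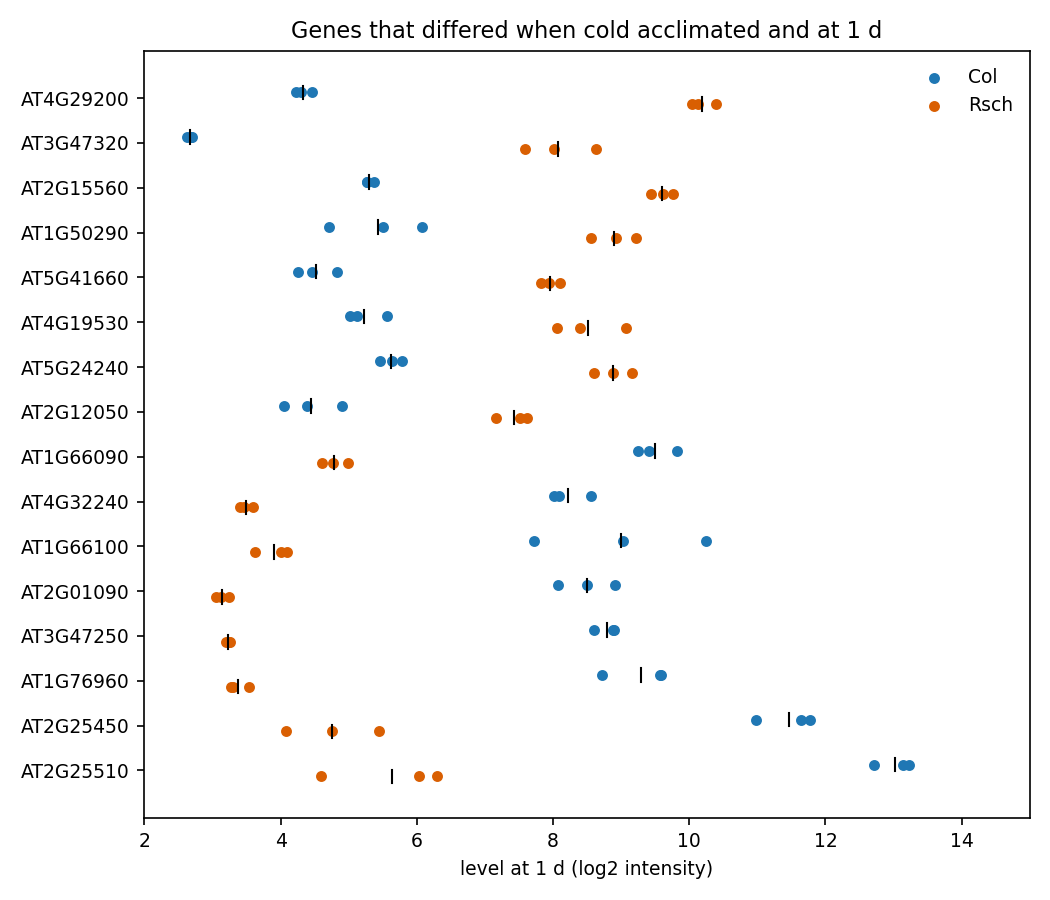
Level at 1 d (log2 intensity, x axis) of the 16 named genes that differed at both stages, with 1 point per array, Col in blue and Rsch in orange, and a bar at each group mean. No gene's groups overlap, and Rsch lies below 5 on all 3 arrays for AT1G66090, AT4G32240, AT1G66100, AT2G01090, AT3G47250 and AT1G76960.

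The differences at 8 h and 3 d were not used to choose the 572 probe sets, although those arrays share in the estimate of spread. With the compared arrays alone, 384 were called at both stages. At 8 h, where 3.75% of all probe sets were called, 427 of the 572 (74.7%) were called in the same direction. At 3 d, where 5% of all were called, it was 440 (76.9%), and 353 were called at both times. With the replicate block the counts over all probe sets were 1336 at 8 h and 1823 at 3 d. AT2G25510 was lower in Rsch by a difference of -7.78 at 8 h and -7.40 at 3 d, and AT4G29200 differed by 5.78 and 6.51. Over all 10 Col and 12 Rsch arrays, 413 probe sets (1.82%) had groups that did not overlap, 156 higher and 257 lower in Rsch. Of the 572, 342 (59.8%) were among them. These arrays include the cold acclimated and 1 d arrays by which the 572 were chosen, so a high share was partly built in. At 1 d alone, 4250 probe sets (18.7%) had 3 Rsch arrays all above or all below those of Col.

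Cold acclimated Te leaves show which accession stood apart for the leading genes. Te read 4.35 ± 0.09 (SD, n = 3) for AT4G29200 and 2.76 ± 0.15 for AT3G47320, close to Col. For AT2G15560 (10.34 ± 0.11), AT1G50290 (9.08 ± 0.19) and AT5G24240 (9.39 ± 0.11) it read near or above Rsch. On the lower side Te was near Col for AT2G25510 (13.08 ± 0.05), AT2G25450 (10.28 ± 0.72) and AT4G32240 (9.71 ± 0.25). It was near the low Rsch level for AT1G76960 (3.46 ± 0.15), AT3G47250 (3.21 ± 0.14), AT1G66100 (3.71 ± 0.25) and AT1G66090 (4.63 ± 0.28). AT2G25450 and AT2G25510 were thus low in Rsch among these 3 accessions, and AT1G76960 and the AT1G66090 pair were high in Col.

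The 285 probe sets called at 1 d only were smaller in effect and nearly even in direction, with 145 higher and 140 lower in Rsch. Their median size was 0.83, against 1.11 in the 572. In cold acclimated leaves 269 of them (94.4%) had the same sign. Their cold acclimated difference divided by that at 1 d had a lower quartile of 0.34. Over all probe sets this quartile was -0.22, where a negative value means opposite signs. With the replicate block, 74 of the 285 were called in cold acclimated leaves as well. The interaction called 3 of the 285, and an unadjusted interaction p under 0.05 was also found for 74. The choice of probe sets called at 1 stage only favours a small interaction p, so nothing is read from that count. The median standard error was 0.20 for a difference at 1 d and 0.29 for the interaction, so an interaction needs a larger effect to pass. A call at 1 d and none before does not by itself show a change. Of the 285, 63 (22.1%) were called in the same direction at 8 h, 112 (39.3%) at 3 d, and 141 at neither. The count varied with single arrays: it was 176 without Col 1 d replicate 1, 172 without Col 1 d replicate 3, and 110, 148 and 155 without Rsch 1 d replicates 1, 2 and 3.

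In 3 of the 6 probe sets with a called interaction, the accessions were alike in cold acclimated leaves and Col alone had risen by 1 d or had risen further. AT2G34910 read 3.65, 3.73 and 3.63 in Col and 3.76, 3.88 and 3.66 in Rsch before the sub-zero step. At 1 d Col read 4.81, 5.06 and 5.41, and Rsch remained at 3.84, 3.85 and 4.00. The interaction was -1.30 ± 0.19 (limma adjusted p = 0.0054), from a difference of 0.10 ± 0.13 to one of -1.20 ± 0.13. At 8 h the difference was 0.12 (adjusted p = 0.824), and at 3 d it was -0.69 (adjusted p = 0.006). Apart from the 5.41 of Col 1 d replicate 3, these levels lay under the dim limit of 5.32. The call was lost in 3 of 25 alternatives, with the compared arrays alone, with and without the replicate block, and with the larger bioC set alone.

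AT1G28375 followed the same course at a smaller size, with every reading under the dim limit of 5.32. Col moved from 3.83, 3.66 and 3.63 to 4.56, 4.79 and 4.63, while Rsch read 3.74, 3.96 and 3.76 and then 3.98, 3.82 and 4.09. Its interaction of -0.81 ± 0.15 (adjusted p = 0.0472) was lost in 21 of 25 alternatives, among them leaving out any one of the 12 arrays. The probe set 263735_s_at, which has no gene named here and can detect several transcripts, rose in both accessions. Col went from 4.29, 4.20 and 4.56 to 6.47, 7.0 and 6.69, and Rsch from 4.43, 4.36 and 4.39 to 4.62, 5.86 and 4.90. The rise was smaller in Rsch (interaction -1.63 ± 0.29, adjusted p = 0.0387), and this call was lost in 16 of 25 alternatives. Leaving out any one of 9 arrays ended it, namely Col 1 d replicates 2 and 3, Rsch 1 d replicates 1 and 3, Col cold acclimated replicates 1 and 2, and each Rsch cold acclimated replicate.

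AT5G28430, a pseudogene in RefSeq with a probe set that can detect related transcripts, had the largest interaction. In cold acclimated leaves it was low in Col (3.20, 3.41 and 3.08) and high in Rsch (6.69, 7.96 and 7.13), a difference of 4.03 ± 0.51. After 1 d Col read 7.18, 7.49 and 6.87 and Rsch 6.95, 6.77 and 5.32, and the groups overlapped. The interaction was -4.87 ± 0.72 (adjusted p = 0.0054), and the difference at 1 d was not called (-0.83 ± 0.51, adjusted p = 0.544). It was lost in 2 of 25 alternatives, the compared arrays alone and the larger bioC set alone. Col rose by 3.95 (log2), and the change in Rsch was not called. At 8 h and 3 d the differences were 0.12 and 0.03. Te stood near Rsch when cold acclimated, at a mean of 6.63.

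In the remaining pair of genes Col was the higher accession at both stages and fell towards the low level of Rsch. AT3G47250, of the DUF247 family, went from 9.84, 9.53 and 9.64 to 8.61, 8.90 and 8.88 in Col. Rsch read 3.04 to 3.13 and then 3.19 to 3.25, so the difference went from -6.59 ± 0.12 to -5.57 ± 0.12 (interaction 1.02 ± 0.17, adjusted p = 0.0148). AT5G55790 went from 6.02, 5.83 and 6.37 to 5.06, 4.24 and 4.49 in Col, and Rsch read 3.15 to 3.40 throughout (interaction 1.44 ± 0.26, adjusted p = 0.0472). All these Rsch readings lay under the dim limit of 5.32, and whether they lie above background is not known. A fall in Rsch might not show at such a level, so both interactions rest on the change in Col. Leaving out single arrays ended both interaction calls. For AT3G47250 these were Col cold acclimated replicate 1, Col 1 d replicate 1, Rsch cold acclimated replicates 1 and 2 and Rsch 1 d replicates 1 and 3. Of the 12 single-array omissions, the call of AT5G55790 stood only without Col cold acclimated replicate 2 or without Col 1 d replicate 1.

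**Figure D3:**
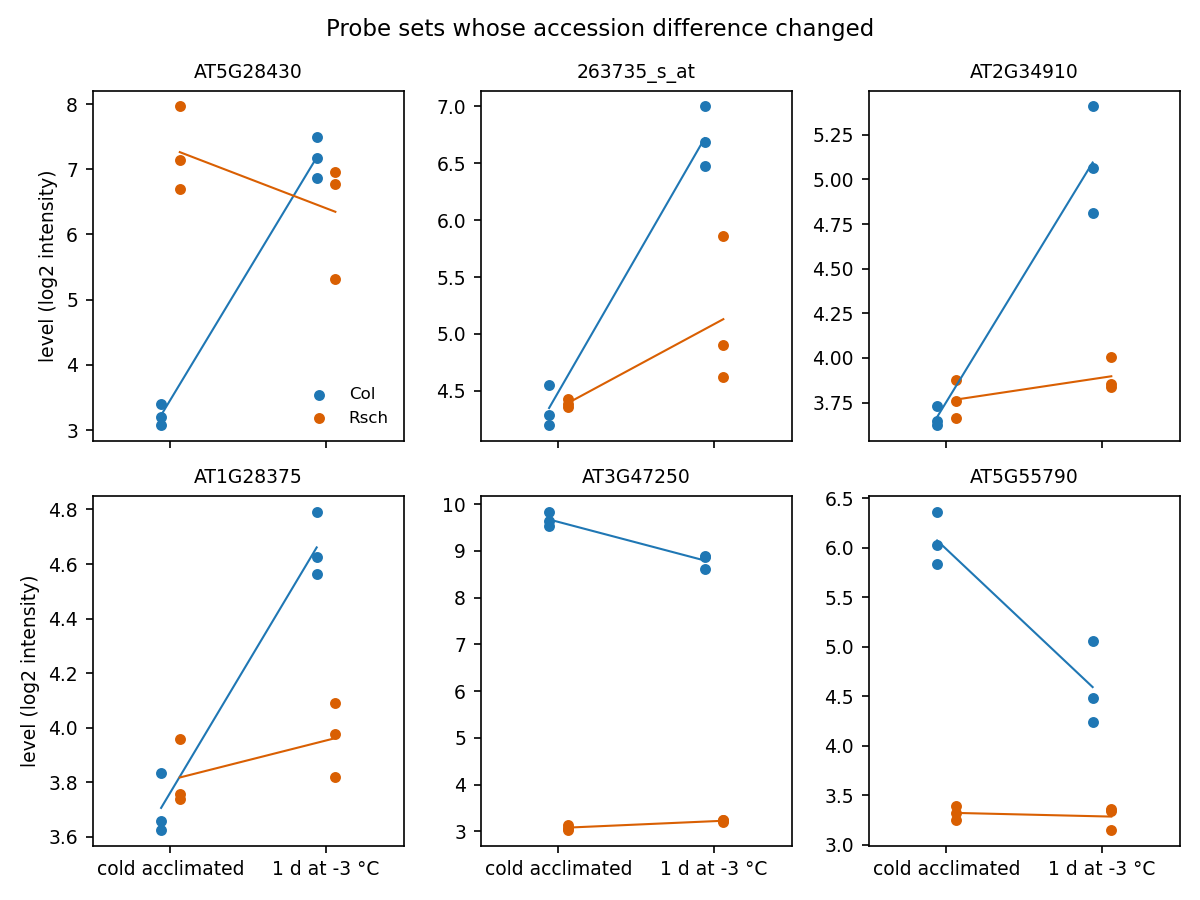
Levels (log2 intensity, y axis, scaled separately for each panel) of the 6 probe sets with a called interaction, in cold acclimated leaves and after 1 d at -3 °C, with 1 point per array and lines joining the group means of Col (blue) and Rsch (orange). Col moves more than Rsch in each panel, upwards in AT5G28430, 263735_s_at, AT2G34910 and AT1G28375 and downwards in AT3G47250 and AT5G55790.

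Among the other genes lower in Rsch at 1 d only, 2 were bright and well separated. AT4G24160, an acyltransferase and lipase related to human CGI-58, read 10.68, 10.52 and 10.36 in Col and 8.46, 8.90 and 8.69 in Rsch. Its difference was -1.83 ± 0.30 (limma adjusted p = 0.000243), after -0.56 ± 0.30 (adjusted p = 0.362) in cold acclimated leaves, where the replicate block left it uncalled (-0.56 ± 0.28, adjusted p = 0.273). It was again lower at 3 d (-2.06, adjusted p = 0.000231). AT4G29610, of the cytidine deaminase family, read 8.47, 8.45 and 8.88 in Col and 6.32, 6.69 and 6.80 in Rsch (-2.00 ± 0.32, adjusted p = 0.000168). It rose from the cold acclimated state in both accessions, by 2.95 in Col and 1.57 in Rsch. The interactions of the pair did not pass (AT4G24160 -1.27 ± 0.42 and AT4G29610 -1.38 ± 0.45, both at an adjusted p of 1.00).

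ATGSTF13, a glutathione transferase, stood at 4.08, 4.28 and 4.76 in Col and at 3.60, 3.61 and 3.60 in Rsch (-0.77 ± 0.15, adjusted p = 0.00165). These readings of ATGSTF13 were dim in both accessions, and the gene had been even when cold acclimated (0.13 ± 0.15). AT5G59490 differed by -1.09 ± 0.20, AT2G07777 by -0.98 ± 0.17 and AT5G61370, of the pentatricopeptide repeat family, by -0.91 ± 0.23. The smaller differences of AT3G55720 (-0.53 ± 0.14) and AT4G14368 (-0.37 ± 0.10) lay in the dim range in both accessions. Leaving out Col 1 d replicate 2 or Rsch 1 d replicates 1 or 3 ended the calls of AT5G61370, AT3G55720 and AT4G14368. Leaving out Rsch 1 d replicate 2 ended those of AT3G55720 and AT4G14368, Col 1 d replicate 1 that of AT3G55720, and Col 1 d replicate 3 that of AT4G14368. Those of AT5G59490, AT3G55720, AT4G14368 and AT5G61370 were also lost on the larger bioC set alone. With accession and replicate as a random block, that of AT3G55720 was lost on all arrays and on the compared arrays alone. AT4G14368 and AT5G61370 were not called with the compared arrays alone, with or without the random block.

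Among genes higher in Rsch at 1 d only, AT5G44730 read 9.08, 8.92 and 9.54 in Rsch and 7.80, 7.40 and 7.25 in Col, a difference of 1.69 ± 0.31 (adjusted p = 0.000984). The accessions had overlapped at about 7 when cold acclimated (-0.10 ± 0.31), and Rsch rose by 2.21 while the change in Col was not called. The interaction of 1.79 ± 0.44 did not pass (adjusted p = 0.653). The difference was 1.27 at 8 h (adjusted p = 0.0374) and 0.70 at 3 d (adjusted p = 0.298). AT2G14110 read 7.76, 7.90 and 7.99 in Rsch and 6.46, 6.64 and 6.63 in Col (1.31 ± 0.27). AT2G40815 (1.44 ± 0.20) and AT3G60590 (0.91 ± 0.14) lay just outside the threshold in cold acclimated leaves, with differences of 0.63 (adjusted p = 0.062) and 0.46 (adjusted p = 0.0538). With the replicate block both were called there (adjusted p = 0.0476 and 0.0401), the 2 of the 20 genes named from those called at 1 d only for which this held.

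4CL8, of the 4-coumarate:CoA ligase family, read 9.79, 9.59 and 8.73 in Rsch and 6.72, 7.31 and 7.66 in Col (2.14 ± 0.54, adjusted p = 0.0196). It rose from the cold acclimated state in both accessions, by 4.15 in Rsch and 2.36 in Col. At 8 h the accessions differed by 3.44 (adjusted p = 0.000641). AT1G14780, of the MACPF domain proteins linked to cell death control, read 9.70, 9.65 and 9.89 in Rsch and 8.91, 8.30 and 7.91 in Col (1.37 ± 0.36). AT2G28510, a DOF transcription factor, differed by 1.37 ± 0.33 and AT3G05990, a leucine-rich repeat protein, by 1.25 ± 0.27. AT1G52320 differed by 0.73 ± 0.19. AT3G46710, of the CC-NBS-LRR immune receptors, differed by 0.43 ± 0.12 in the dim range.

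These calls leaned on single arrays to different degrees. Leaving out Rsch 1 d replicate 2 ended those of AT3G05990, 4CL8, AT1G14780, AT1G52320 and AT3G46710, and Rsch 1 d replicate 1 those of the last 4. Rsch 1 d replicate 3 ended those of AT2G28510, AT1G14780 and AT3G46710, and Col 1 d replicate 3 those of AT2G28510, AT1G14780, AT1G52320 and AT3G46710. Col 1 d replicate 1 ended those of 4CL8 and AT3G46710, and Col 1 d replicate 2 that of AT1G14780. Those of AT1G14780, AT2G28510, AT1G52320 and AT3G46710 were not called on the larger bioC set alone. AT3G46710 was also lost without Col cold acclimated replicate 1 or any Rsch cold acclimated array, with median centring and with accession and replicate as a random block. On the compared arrays alone it was lost with or without a block, and in all it was lost in 15 of 25 alternatives. AT3G05990 and AT1G52320 were not called with the compared arrays alone, with or without the random block, nor AT1G52320 after quantile normalization. The calls of AT5G44730, AT2G14110, AT2G40815 and AT3G60590 stood in every alternative run.

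**Figure D4:**
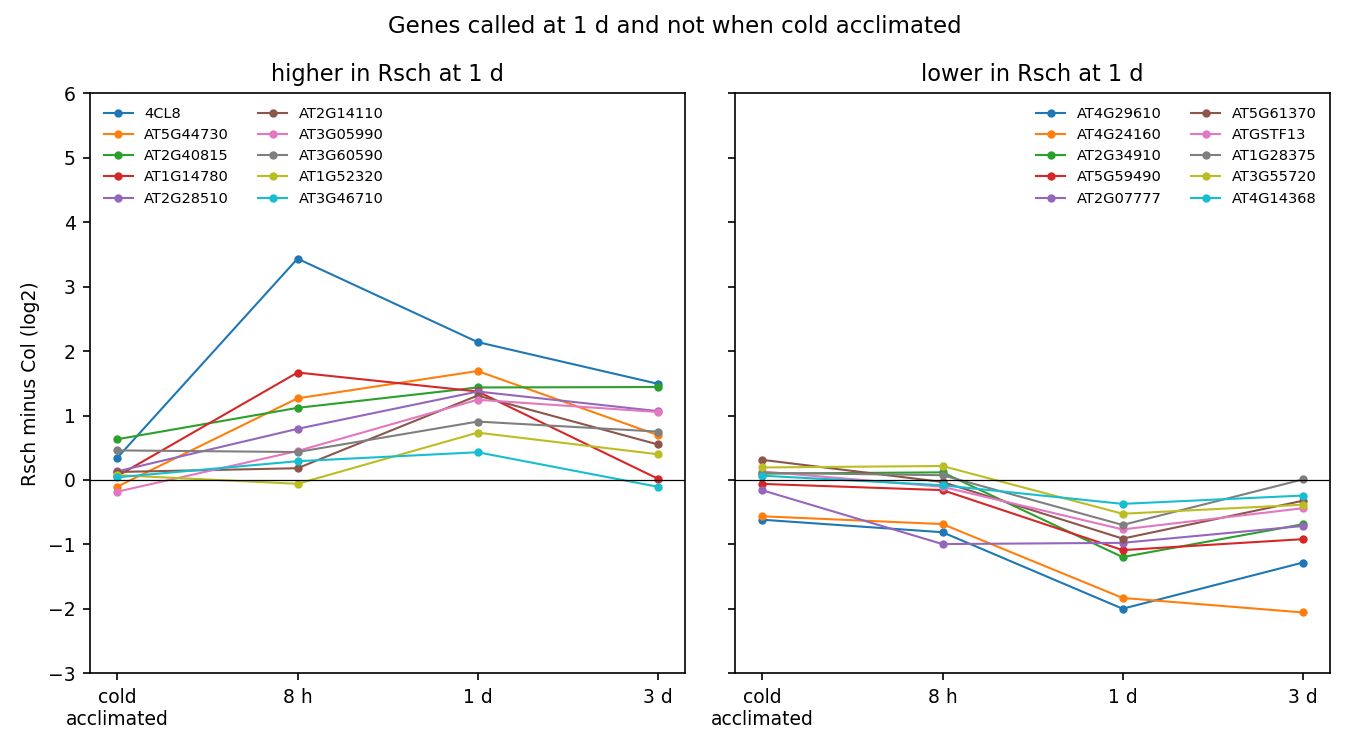
Rsch minus Col (log2, y axis) in cold acclimated leaves and after 8 h, 1 d and 3 d at -3 °C for the 20 named genes called at 1 d and not when cold acclimated, with 1 line per gene. Their cold acclimated and 1 d points entered the choice of the genes and are a description, and 4CL8 reaches its highest difference at 8 h (3.44).

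The following genes were picked after their values were seen, as the largest differences among named probe sets called at 1 d only and not yet described. AT1G33760, of the DREB subfamily of AP2/ERF transcription factors, read 8.51, 8.73 and 8.50 in Col and 5.18, 5.15 and 5.05 in Rsch, a difference of -3.45 ± 0.79 (adjusted p = 0.00936). Col had varied from 4.28 to 8.46 when cold acclimated, with replicate 3 the highest, so the small spread at 1 d was not matched there. AT4G39320 read 7.88, 8.63 and 8.81 in Col and 5.90, 5.25 and 6.60 in Rsch (-2.53 ± 0.42). AT5G54720 differed by -2.37 ± 0.42 and AT4G28085 by -2.30 ± 0.64. On the higher side were AT5G44570 (2.02 ± 0.55), the calmodulin-binding family member AT4G31000 (1.98 ± 0.49) and WRKY42 (1.85 ± 0.42).

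The calls of AT5G44570 and AT4G28085 were each lost without Col 1 d replicates 1, 2 or 3 or Rsch 1 d replicates 1 or 2. That of AT4G31000 was lost without Col 1 d replicates 1 or 2 or Rsch 1 d replicates 1 or 3, and that of WRKY42 without Rsch 1 d replicate 2. AT1G33760, AT4G31000, AT5G44570 and AT4G28085 were not called on the larger bioC set alone or with the compared arrays alone. WRKY42 was also not called with the compared arrays alone, with or without accession and replicate as a random block. With the replicate block AT5G44570 was called in cold acclimated leaves as well (adjusted p = 0.0133).

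Of the 27 genes of the CBF regulon and cold response list, 6 had a named probe set, and none was called at 1 d, with or without the replicate block. At the 3.77% called among all probe sets, few calls would be made among 6, so nothing is read from that count. COR15A, a chloroplast protein that protects membranes, stood at 12.96 in Col and 13.03 in Rsch, and COR47, a dehydrin, at 13.31 and 13.40. The 6 differences at 1 d ran from -0.19 to 0.09, with a median of 0.05, the same after rounding as that of all 13356 named genes. In cold acclimated leaves the median was 0.59, against 0.05 over all named genes, and COR47 was higher in Rsch there (0.90, adjusted p = 0.0295). No interaction of the 6 passed, that of COR47 included (-0.81, adjusted p = 1.00), so a change in the list is not shown. None of 7 late embryogenesis abundant genes was called (median 0.06), of which 4 are also on the cold list.

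Photosynthesis genes, 11 measured of 49 listed, differed by -0.12 to 0.51 at 1 d, with none called and a median of 0.28. Of 103 listed cell wall genes, 28 had a named probe set, mainly expansins and xyloglucan endotransglucosylases. None of the 28 was called, although single members spread widely. XTH29 read 6.10, 7.68 and 7.03 in Rsch and 5.27, 5.69 and 4.89 in Col (1.66 ± 0.50, adjusted p = 0.0635), and XTH19 differed by -1.63 ± 0.49 (adjusted p = 0.0605). Both were called with the replicate block (XTH29 adjusted p = 0.000984, XTH19 adjusted p = 0.0312), XTH29 in 8 of 26 alternatives and XTH19 in 7. The measured members were 20 of 40 listed beta-glucosidases, 7 of 76 calcium sensors, 8 of 24 dark and starvation genes and 7 of 11 bZIP factors. None of them was called. At the 3.77% called among all probe sets, few calls would be made in lists of these sizes. Nothing is read from these counts, nor from those of the photosynthesis and cell wall lists. With the replicate block, 1301 of all 22746 probe sets were called. Among them were CML37, a calcium sensor (adjusted p = 0.0221), and PPDK, a pyruvate phosphate dikinase of the starvation list (adjusted p = 0.0393). BGLU15, of the beta-glucosidases and the starvation list, was called in 3 of 26 alternatives, with an adjusted p of 0.00602 at the lowest. Over all 13356 named genes the test called 224 higher and 265 lower in Rsch.

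Lists of secondary metabolism and detoxification held a few called members. With 3.77% called among all probe sets, nothing is read from these counts. In the flavonoid list 1 of 6 was called, UGT78D1, a flavonol rhamnosyltransferase, which was lower in Rsch at 1 d (-1.12 ± 0.28, adjusted p = 0.0207) and when cold acclimated (-1.08 ± 0.28). It read 6.20, 5.94 and 6.34 in Col and 5.23, 4.88 and 5.02 in Rsch, and was the one called among 47 UDP-glycosyltransferases (3 with the replicate block). Its call was lost without Col 1 d replicates 1 or 3 or Rsch 1 d replicates 2 or 3. The flavonoid list's CHI was matched by symbol to AT2G43570, a putative chitinase and not the chalcone isomerase intended. That gene, which was not called, does not belong among the 6. Of 12 glutathione transferases, 2 were higher. GSTU15 read 6.64, 6.85 and 6.78 in Rsch and 5.30, 5.57 and 4.80 in Col (1.53 ± 0.27, adjusted p = 0.00065), and it had been higher when cold acclimated (1.28 ± 0.27). GSTU23 differed by 0.87 ± 0.18 at a dim level, a call lost without Rsch 1 d replicate 1, with the compared arrays alone (also under the random block) and on the larger bioC set alone.

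In the glucosinolate list, 4 of 35 genes were measured and none was called at 1 d. AOP1, a dioxygenase next to the side chain modifying AOP genes, had been lower in cold acclimated Rsch (-1.58 ± 0.34, adjusted p = 0.00451), and at 1 d its difference was -0.94 ± 0.34 (adjusted p = 0.152). AT2G25450, described above, carries no symbol in the annotation and so was not counted in that list. Of 22 cytochromes P450 (2 called with the replicate block), CYP71B6 was higher (0.76 ± 0.18, adjusted p = 0.0157), a call lost without Col 1 d replicates 1 or 3 or Rsch 1 d replicates 1 or 2.

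Single members were called in the lists of hormones, regulation and recycling, against 3.77% of all probe sets, and their counts are a description only. JMT, which makes methyl jasmonate, read 5.95, 6.0 and 5.98 in Rsch and 4.54, 4.61 and 4.59 in Col (1.39 ± 0.21, adjusted p = 0.000126), and differed by 1.60 ± 0.21 when cold acclimated. It was 1 of 4 measured jasmonate genes, of 33 listed. WRKY42, which regulates phosphate transport and leaf senescence, was 1 of 6 measured WRKY factors, of 67 listed (limma adjusted p = 0.00954). It read 6.77, 7.67 and 7.17 in Rsch and 5.48, 5.28 and 5.30 in Col. ATG8D, a ubiquitin-like protein of autophagy, was 1 of 8 (0.66 ± 0.18, adjusted p = 0.0384), and leaving out any one of the 6 arrays of 1 d ended its call. QQS, an orphan gene that affects starch content and is known to vary in expression among accessions, read 7.62, 6.57 and 7.28 in Col and 4.58, 4.66 and 4.45 in Rsch. Its difference was -2.59 ± 0.30 at 1 d and -4.15 ± 0.30 when cold acclimated, and the interaction of 1.56 ± 0.43 did not pass (adjusted p = 0.81).

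**Figure D5:**
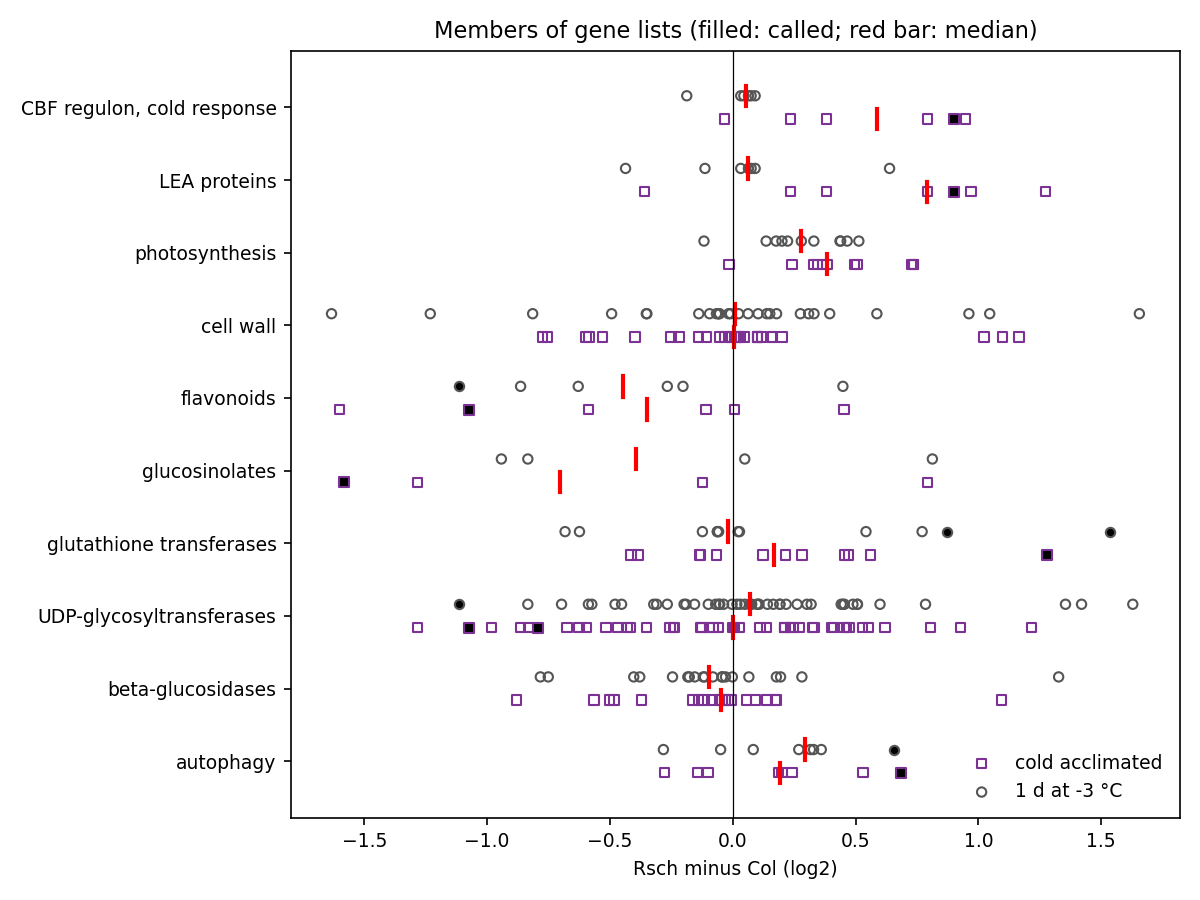
Rsch minus Col (log2, x axis) for each measured member of 10 gene lists, in cold acclimated leaves (squares) and after 1 d (circles), with filled symbols for called differences and red bars at the medians. The cold response list, with 6 of 27 genes measured, has a median of 0.59 before and 0.05 after 1 d, and no interaction was called among its members. UGT78D1 is the filled circle at -1.12 in both lists that hold it. The flavonoid row and its medians include CHI (AT2G43570), a putative chitinase matched by symbol only.

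Called genes also sat beside each other on the chromosomes. Among 5818 pairs of neighbouring protein-coding genes with both members measured, 15 pairs (0.258%) had both called at 1 d. In 10 they had the same direction, 9 lower and 1 higher in Rsch, and in 5 they were opposite. Where 1 member of a pair was called, the other was called in 7.09% of cases, against 3.64% of all pair members. AT4G19500 and AT4G19510, known in Columbia as RPP2A and RPP2B and needed together for downy mildew resistance, were lower in Rsch by differences of -1.49 and -0.76. AT1G57630 and AT1G57650 went opposite ways (-4.06 and 2.01). AT5G45500 and AT5G45510 were both lower (-4.33 and -1.31), as were AT5G03345 and AT5G03350, the second a legume lectin family gene (-1.40 and -3.95). AT4G23870 and AT4G23880 were called at 1 d (-1.29 and -1.56) and not when cold acclimated (-0.16 and -0.14). Neither was among the 6 probe sets with a called interaction, so a change between the stages is not shown for them.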

How the data were processed

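RNA from leaves was hybridised to Affymetrix ATH1 arrays, 1 array per sample. The values used are log2 intensities per probe set that the authors made with RMA, as the submitters' processing notes state; its version is not given in the sources used here. The log2 scale was taken from the range of the deposited values. Arrays were grouped by their titles. The source label of cold acclimated replicate 3 says 2, where the title's number was kept. The labels state independent biological replicates.

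The table held 22810 probe sets. The 64 controls were left out and 22746 were tested with no filter on level. Probe sets were named from the platform's annotation, which can be old, and symbols were updated through RefSeq (TAIR10.1, names and gene order only): 13513 probe sets had 1 gene (13436 matched, 77 kept the annotation's name), 503 had several and 8730 were unnamed here. Where a gene had several probe sets, the one with the highest mean stood for it in lists.

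A mean for each of 12 groups was fitted to 34 arrays with limma 3.58.1 in R 4.3.3 (22 residual degrees of freedom, default eBayes). Contrasts were Rsch minus Col at 1 d, when cold acclimated, at 8 h and at 3 d, their interaction (1 d minus cold acclimated), and 1 d minus cold acclimated in each accession. Calls used a Benjamini-Hochberg adjusted p under 0.05 over all probe sets. SEs come from the moderated variance. Col at 8 h and 3 d had 2 arrays each. The code was tested on simulated data. Tables and plots used Python 3.11.15, pandas 2.3.3 and matplotlib 3.10.9.

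Same-numbered arrays of the accessions deviated together from their group means. The correlations were 0.21 to 0.43 in the 3 pairs at 1 d and 0.26 to 0.61 in the 3 cold acclimated pairs. The replicate numbers were therefore taken as possible pairs and fitted as a block in alternatives. The main fit had no replicate term, so its SEs and adjusted p values make no use of pairing. No label states a shared batch. Same-numbered arrays of 1 accession also deviated together between the stages, with correlations of 0.44 to 0.58 in Col and 0.39 to 0.50 in Rsch. Over all 18 same-numbered pairs of the 4 groups the range was 0.05 to 0.61. Over the 36 differently numbered pairs it was -0.49 to 0.31, so the ranges overlapped, although each pair between the stages of 1 accession lay above 0.31.

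Named genes were, for those called at both stages, the 8 highest and 8 lowest differences. Of those called at 1 d only, up to 10 per direction were named, first those with a called interaction, then those with the smallest interaction p. Genes with a called interaction and called or leading members of the 29 lists were added, and marker lists covered 7 cell types or states. The members, lists and alternatives were chosen with earlier results of these data known, and 3 alternatives were added later. In all, 27 alternatives were run. They left out dim probe sets (largest group mean under 5.32), those with suffix _s_at or _x_at, or single arrays, and changed the scaling, weights, blocks, arrays or fold threshold. Promoter motifs were not analysed here.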

Additional observations from a re-analysis of the deposited data

Results flagged for a closer look

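The test of whether the difference between Rsch and Col had changed from cold acclimated leaves to 1 d passed for 6 probe sets, 5 of them named. AT5G28430 changed by -4.87 log2 and AT2G34910 by -1.30, the pair with the smallest adjusted p. AT1G28375 changed by -0.81, and the unnamed probe set 263735_s_at by -1.63. AT3G47250 changed by 1.02 and AT5G55790 by 1.44, both with Col falling towards a dim Rsch level at which a fall in Rsch might not show. None of the 6 calls stood under every alternative.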

How the results depend on the processing

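No result reversed its direction as a called value. All 16 named genes called at both stages kept their call at 1 d in every alternative, and 33 of 52 named genes called at 1 d did so. The 16 were picked as the largest differences, so little is read from their stability. For the other counts the cause of a shift was not tested.

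With the replicate number as a block, the calls were 1301 at 1 d, 1824 when cold acclimated, 1336 at 8 h, 1823 at 3 d, 892 at both stages and 5 for the interaction. The larger bioC set alone gave 419 at 1 d, 430 cold acclimated, 421 at 3 d, 265 at both stages, 154 at 1 d only and 0 for the interaction (limma, 419 at an unadjusted p under 0.05). Asking for 2-fold as well left 440 at 1 d, 550 cold acclimated, 508 at 8 h, 591 at 3 d, 307 at both stages and 133 at 1 d only. Array weights gave 1802 cold acclimated and 730 at 3 d. Fitting the 12 compared arrays alone gave 574 at 1 d, 737 cold acclimated and 0 for the interaction (527 unadjusted). With accession and replicate as a random block, an alternative chosen after seeing the data, 906 were called at 1 d. On the 12 arrays, also chosen later, the random block gave 181 at 1 d only and 8 interactions, and the fixed replicate block 434 and 1.

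The interaction count was 3 without dim probe sets, 3 after quantile normalization, 2 without _s_at and _x_at probe sets and 3 without Te 1 d and 3 d replicate 1, arrays doubted in an earlier analysis. Leaving out 1 array at a time gave 507 to 949 at 1 d, 601 to 1198 cold acclimated, 2 to 6 interactions and 110 to 419 at 1 d only. At an unadjusted p, interactions numbered 289 to 1229 over the alternatives. The share of 1 d calls higher in Rsch was 43.9%, and it ran from 32.3% with the 2-fold threshold to 50.8% on the 12 arrays with the replicate block, with 38.3% after quantile normalization and 48.7% with the replicate block. The number of arrays limits the precision, and 117 of the 857 probe sets were dim in both 1 d groups.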
